A study of Mus musculus with 3 samples.

Results

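The 10 genes described here belong to the Notch pathway: the receptors Notch1, Notch2 and Notch3, the ligands Dll1, Dll3, Jag1 and Jag2, and the Hes/Hey repressors Hes1, Hes5 and Hey1. They were taken by gene symbol from the deposited array table, and where a gene had several rows, the brightest over the 3 arrays was read. All 10 had a row of their own among the 22180 genes that could be named. Total RNA of mouse striatal cell lines was profiled on Affymetrix Mouse Gene arrays, with 1 array per condition. Q111-ASOs were STHdhQ111/Q111 cells given specific morpholino antisense oligos (ASOs, 3 μM of each of a pair) against the splice sites of Rest exon 3. Q111-Control were STHdhQ111/Q111 cells given a control oligo, and Q7-Control were STHdhQ7/Q7 cells given a control oligo. All cells were from C57BL6/J mice with humanized Htt exon 1, which carries 111 polyQ repeats in STHdhQ111/Q111 and 7 in STHdhQ7/Q7. All 3 cultures were grown at 33°C and harvested 48 h after oligo delivery with 6 μM Endo-Porter. Each genotype is 1 immortalized line, so the polyQ length and any other difference between the lines cannot be told apart. With 1 array per condition there is no spread between replicates, no difference could be tested, and every value below describes these 3 cultures only.

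Notch signalling passes between neighbouring cells. A Delta-like or Jagged ligand on one cell pulls on a Notch receptor of the next, ADAM proteases and γ-secretase then cut the receptor, and its intracellular part enters the nucleus, binds the DNA-binding protein CSL (Rbpj) and switches on the Hes and Hey genes. Hes and Hey proteins repress proneural genes, and in the developing brain, striatal primordium included, this keeps neural progenitors from becoming neurons.

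The arrays were alike in their overall signal. The median log2 signal over 41345 rows was 6.00 in Q111-ASOs, 6.03 in Q111-Control and 5.97 in Q7-Control. Many genes carry exactly the same value on several arrays: 35.5% of all genes were equal on all 3 arrays, 49.4% between Q111-ASOs and Q111-Control, and 43.4% between Q111-Control and Q7-Control. Of the 10 Notch genes, 4 were equal on all 3 arrays (40.0%). How such equal values arose was not tested, and small differences of these genes may not be visible. Rest, whose exon 3 the ASOs target, had a log2 signal of 9.33 in Q111-ASOs, 9.16 in Q111-Control and 9.16 in Q7-Control. The deposited signal, given per transcript cluster, does not separate transcripts with and without that exon. Htt had 8.97, 9.05 and 9.85.

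CSL binds a short site whose core is TGGGAA, and Hes and Hey proteins bind the E-box (CACGTG), the class C site (CACGCG) and the N-box (CACNAG). These 4 motifs were searched on both strands of the 250 bases before each start site in the RefSeq promoter table (GRCm38.p6), which had entries for 8 of the 10 genes, all but Hes1 and Hey1. Hes5 was the 1 gene of these 8 with a CSL core and had 2 of them, at -226 to -221 and at -82 to -77 from the start. At least 1 core was found in 21.6% of all 32851 promoters and 2 or more in 2.77%. Of the 9 promoters of these 8 genes, 3 had a class C site (Notch2, Jag1 and 1 of the promoters of Dll1), against 7.62% of all promoters. An N-box was found in 3 (Notch1, Notch2 and Notch3), against 36.7%, and an E-box in 0, against 6.02%. The promoters shown are of 3 Notch-responsive genes, picked by hand as examples, that had different values on these arrays. Hes5 (chr4:154960673-154960922, plus strand) was equal on all 3 arrays, at a dim signal below the median of all genes. The fringe gene Lfng (chr5:140607091-140607340, plus strand) was lower in Q111-Control than in Q7-Control. The feedback inhibitor gene Nrarp (chr2:25180508-25180757, plus strand) was lower still. Capitals mark the CSL core, which reads TTCCCA where it lies on the other strand.
Hes5: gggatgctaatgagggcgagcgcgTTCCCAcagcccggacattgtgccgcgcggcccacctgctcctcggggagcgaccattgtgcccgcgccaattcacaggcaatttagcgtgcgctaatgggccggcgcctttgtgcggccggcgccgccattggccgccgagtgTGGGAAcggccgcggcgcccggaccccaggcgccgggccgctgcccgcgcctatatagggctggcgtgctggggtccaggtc
Lfng: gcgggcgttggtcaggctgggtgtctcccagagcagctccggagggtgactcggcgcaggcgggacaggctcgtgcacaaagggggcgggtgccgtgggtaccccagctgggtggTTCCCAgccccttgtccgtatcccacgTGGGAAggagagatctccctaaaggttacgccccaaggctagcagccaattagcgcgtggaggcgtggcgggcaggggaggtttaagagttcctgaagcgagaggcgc
Nrarp: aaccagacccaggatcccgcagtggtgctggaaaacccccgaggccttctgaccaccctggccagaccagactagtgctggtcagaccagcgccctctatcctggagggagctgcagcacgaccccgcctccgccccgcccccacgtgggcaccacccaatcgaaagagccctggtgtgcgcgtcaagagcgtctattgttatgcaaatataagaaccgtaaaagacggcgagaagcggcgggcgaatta
In Lfng the cores lay at -135 to -130 and at -108 to -103, and the second shares 2 bases with an E-box at -112 to -107. Nrarp had no CSL core in this window but had an E-box at -108 to -103. A match describes letters only and does not show that a factor was bound.

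The targets held the widest differences among the Notch genes. Hey1 and Hes1 were both lower in Q111-Control than in Q7-Control, and neither had a higher signal with ASOs than with the control oligo in the Q111 line. Hey1, a repressor of the Hey family that Notch switches on, had a log2 signal of 5.96 in Q111-ASOs, 6.13 in Q111-Control and 8.92 in Q7-Control. Both arrays of the Q111 line were thus far below the Q7 array and close to each other. Hey1 was 6.88-fold lower in Q111-Control than in Q7-Control (log2 difference -2.78), which placed it 69 from the lowest of 22180 genes. With ASOs its log2 difference from Q111-Control was -0.18, so that Q111-ASOs lay 7.77-fold below Q7-Control. Both Q111 signals of Hey1 were dim, under the median of all genes (6.55). Background was not measured here, so the size of this fold is uncertain.

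Hes1, the repressor best known for holding neural progenitors undifferentiated, had a log2 signal of 7.19 in Q111-ASOs, 7.19 in Q111-Control and 8.77 in Q7-Control. The values of the Q111 line were identical to the last deposited digit, and both were below Q7-Control. The log2 difference of Q111-Control from Q7-Control was -1.58, or 3.00-fold lower (2.997-fold before rounding, just short of 3-fold). In the values as deposited, Hey1 was the 1 gene of the 10 past 3-fold, against 1.15% of all genes over 3-fold lower in Q111-Control and 1.01% in Q111-ASOs than in Q7-Control. After centring or quantile normalization of the arrays Hes1 also passed 3-fold, with log2 differences of -1.64 and -1.63 between Q111-Control and Q7-Control. Unlike Hey1, all its signals were above the median of all genes. Hes5, a further Hes repressor of neural progenitors, had 6.32 on all 3 arrays, below that median. A second row of Hes5, not used because of its lower mean, had 5.96 in Q111-ASOs, 5.97 in Q111-Control and 6.01 in Q7-Control. The log2 difference of Q111-Control from Q7-Control was 0.00 in the row used and -0.04 in the second row of Hes5, unlike those of Hes1 and Hey1.

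**Figure D1:**
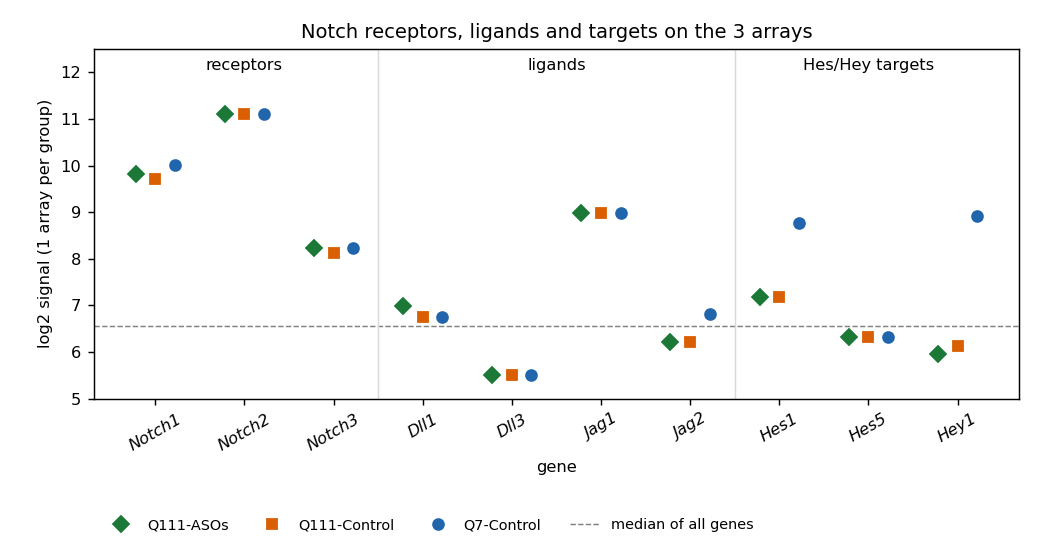
Log2 signal (vertical axis) of the 10 Notch genes (horizontal axis) on the arrays of Q111-ASOs, Q111-Control and Q7-Control, 1 point per array and no error bars, since each condition has 1 array. Hes1 and Hey1 have both Q111 points well below the Q7-Control point (7.19 and 7.19 against 8.77, and 5.96 and 6.13 against 8.92), while Notch2, Dll3, Jag1 and Hes5 have 3 equal points.

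Over the 10 genes, 2 were over 2-fold lower in Q111-Control than in Q7-Control (Hes1 and Hey1) and 0 were over 2-fold higher, where 2-fold is the criterion of the study. Of all 22180 genes, 2.53% were over 2-fold lower and 2.03% over 2-fold higher. The median log2 difference of the 10 genes was -0.06, against 0.00 for all genes. Of the 10, 5 were lower in Q111-Control, 5 were equal and 0 were higher, by any amount. Of all 22180 genes, 6585 were lower, 9630 equal and 5965 higher. In Q111-ASOs against Q111-Control, 0 of the 10 were over 2-fold higher and 0 over 2-fold lower, where 0.104% and 0.0271% of all genes were. Here 3 genes were higher, 1 was lower and 6 were equal, with log2 differences between -0.18 and 0.25. Of all genes, 6154 were higher, 5061 lower and 10965 equal. Q111-ASOs against Q7-Control gave the same 2 genes over 2-fold lower, where 2.25% of all genes were over 2-fold lower and 2.27% over 2-fold higher. The comparisons share arrays, so an error of the Q111-Control array would enter both differences taken from it.

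**Figure D2:**
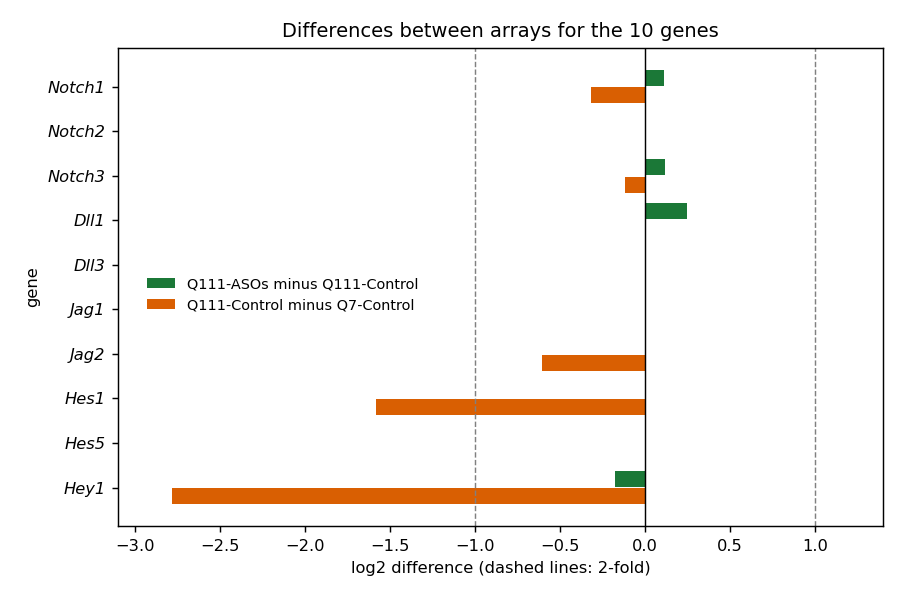
Log2 differences (horizontal axis) of the 10 genes for Q111-ASOs minus Q111-Control and Q111-Control minus Q7-Control, each from 1 array against 1 array, with dashed lines at 2-fold. Hey1 (-2.78) and Hes1 (-1.58) pass the line for Q111-Control minus Q7-Control, and no bar passes it for Q111-ASOs minus Q111-Control.

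The receptors differed little. Notch1, the receptor studied most in neural progenitors, had a log2 signal of 9.81 in Q111-ASOs, 9.70 in Q111-Control and 10.02 in Q7-Control. Its Q111-Control signal was the lowest of the 3, with a log2 difference of -0.32 from Q7-Control (1.24-fold lower), and Q111-ASOs lay between the controls at 0.11 above Q111-Control. Notch2, a receptor of many progenitor cell types, had 11.10 on all 3 arrays. Notch3, which is also known from pericytes and smooth muscle cells, had 8.24 in Q111-ASOs, 8.12 in Q111-Control and 8.24 in Q7-Control. Its values in Q111-ASOs and Q7-Control were identical, and Q111-Control was 0.12 below both. No receptor reached 1.5-fold in either comparison.

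Among the ligands, Jag2 was lower in the Q111 line and Dll1 was higher with ASOs, both by less than 2-fold. Jag2, a Jagged ligand, had a log2 signal of 6.21 in Q111-ASOs, 6.21 in Q111-Control and 6.81 in Q7-Control. The Q111 arrays were equal, and Q111-Control was 1.52-fold lower than Q7-Control (log2 difference -0.61). Both Q111 signals of Jag2 were under the median of all genes and background was not measured, so this fold too is uncertain in size. In all, 5.20% of genes were over 1.5-fold lower in that comparison. Dll1, the Delta-like ligand of the developing nervous system, had 6.99 in Q111-ASOs, 6.75 in Q111-Control and 6.75 in Q7-Control. Its difference of 0.25 with ASOs (1.19-fold) was the highest of the 10 genes, and 3.51% of all genes had a difference as high or higher. The other row of Dll1 had 6.06 on all 3 arrays, so its rows disagree. Jag1, the other Jagged ligand, had 8.98 on all 3 arrays. Dll3, a Delta-like protein that acts mainly inside the cell and does not activate receptors of neighbours, had 5.50 on all 3 arrays, below the median of all genes.

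**Figure D3:**
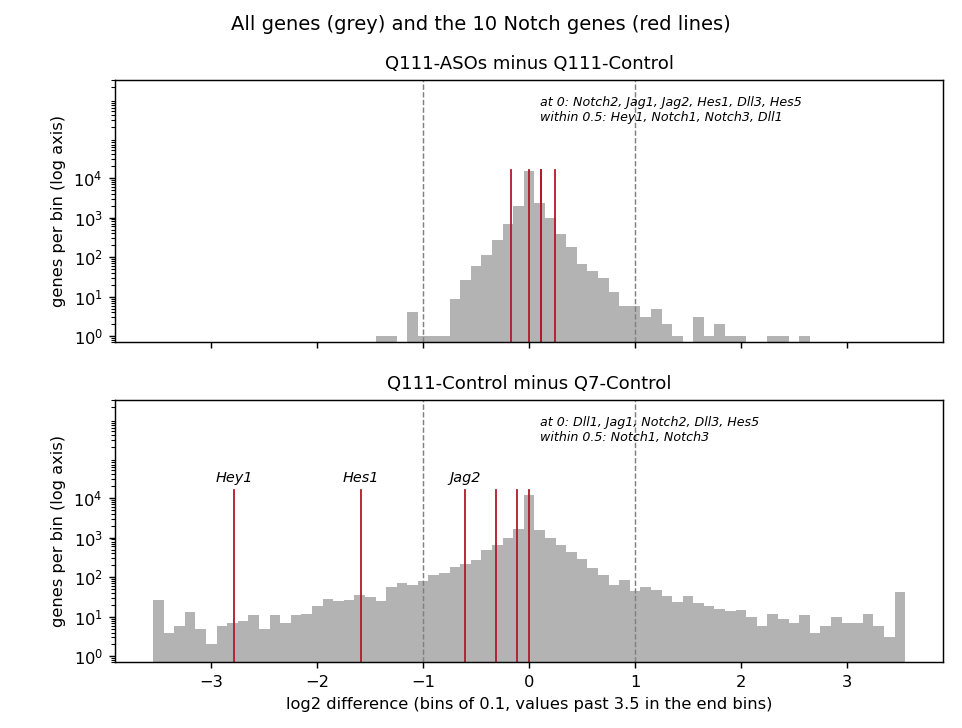
Number of genes per bin (vertical log axis) by log2 difference (horizontal axis) for Q111-ASOs minus Q111-Control (top) and Q111-Control minus Q7-Control (bottom), all 22180 genes in grey and the 10 Notch genes as red lines. In the top panel every red line lies between -0.18 and 0.25, and in the bottom panel Hey1 (-2.78), Hes1 (-1.58) and Jag2 (-0.61) lie in the lower tail.

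The rest of the pathway was read from 7 lists with 61 genes, of which 57 had a row of their own (the others were not analysed here). In Q111-Control against Q7-Control, 1 of the 57 was over 2-fold higher and 2 were over 2-fold lower. These counts were near the background of 2.03% higher and 2.53% lower over all genes. The median log2 difference was 0.00, which is also the median of all genes. In Q111-ASOs against Q111-Control, 0 of the 57 passed 2-fold in either direction, and the differences lay between -0.21 and 0.19. Of 8 further genes, Nrarp and other members of the Hes/Hey family, not all of them known Notch targets, 1 was over 2-fold lower in Q111-Control. This was Nrarp, an ankyrin repeat protein gene that Notch switches on and whose protein limits Notch signalling, with 5.61 in Q111-ASOs, 5.61 in Q111-Control and 7.36 in Q7-Control. Nrarp was 3.37-fold lower in Q111-Control (log2 difference -1.75). The size of this fold is uncertain, since its Q111 signals were below the median of all genes. Heyl and Hes6, further members of the Hes/Hey family, had log2 differences of 0.25 and -0.21.

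Among 12 measured regulators of ubiquitination and endocytosis, 1 was over 2-fold lower in Q111-Control and 0 were higher. Dtx4, a Deltex ubiquitin ligase gene, had 8.01 in Q111-ASOs, 7.88 in Q111-Control and 9.46 in Q7-Control, and was 3.00-fold lower in Q111-Control (log2 difference -1.58). The ligand ubiquitin ligase gene Neurl1a was 0.65 higher on the log2 scale, and Fbxw7, whose product marks the cut receptor for degradation, had a difference of -0.47. Of 13 measured genes of the CSL complex and its cofactors, 1 was over 2-fold higher in Q111-Control. This was Tle1, a Groucho corepressor that Hes proteins recruit, with 8.29 in Q111-ASOs, 8.20 in Q111-Control and 7.15 in Q7-Control, or 2.07-fold higher in Q111-Control. Its log2 difference of 1.05 was 0.99 after centring or quantile normalization of the arrays, and 0.53 as the mean of its rows, all under 2-fold. Tle2, a close relative, had a difference of 0.93, and Maml3, a Mastermind coactivator of the Notch complex, of -0.62. Rbpj, the CSL gene itself, was named after its values were seen and had 10.96 in Q111-ASOs, 10.82 in Q111-Control and 10.43 in Q7-Control.

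In the remaining lists no gene passed 2-fold in either comparison. Lfng, the fringe glycosyltransferase that alters how Notch responds to its ligands, had 8.49 in Q111-ASOs, 8.61 in Q111-Control and 9.24 in Q7-Control. Its log2 difference of Q111-Control from Q7-Control was -0.63. Rfng and Poglut1, which also add sugars to Notch, were 0.15 and 0.11 higher in Q111-Control. Of the 8 measured protease genes, the γ-secretase subunit gene Psenen had the widest difference of Q111-Control from Q7-Control, at -0.23, and Adam10, which makes the first ligand-dependent cut, had 0.11. Of 5 other ligands and receptors, Notch4 had a difference of 0.35, Dll4 of -0.21 and Dner of -0.19. Among 6 measured proneural factors, the genes that Hes proteins repress, 5 were equal on all 3 arrays, and Neurog1 had 5.87 in Q111-ASOs, 6.00 in Q111-Control and 5.97 in Q7-Control.

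**Figure D4:**
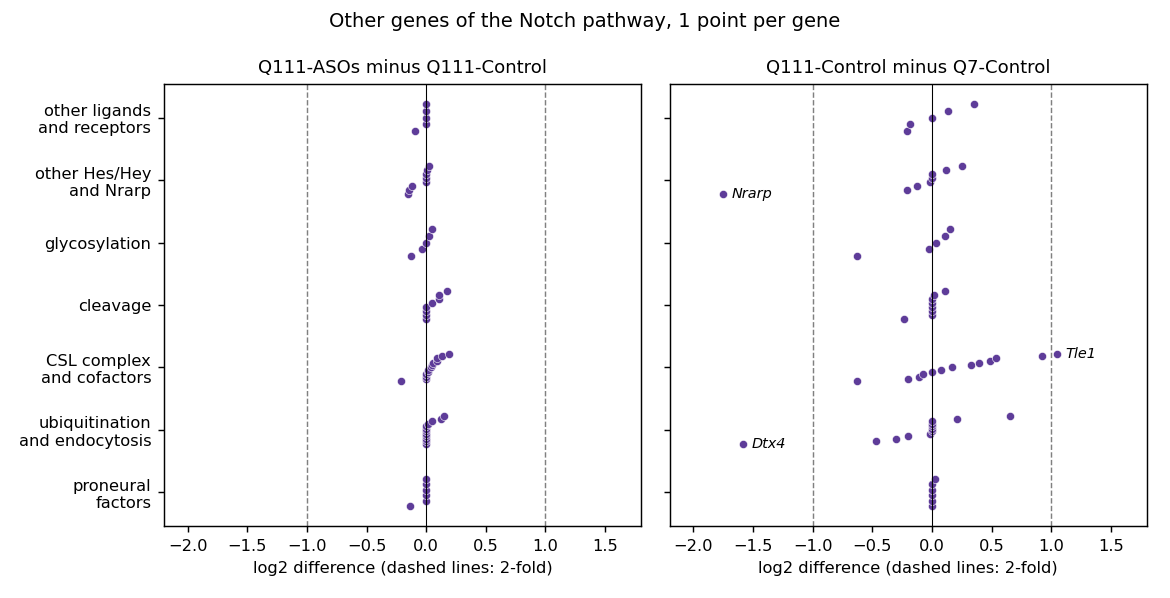
Log2 differences (horizontal axis) of 57 other Notch pathway genes by step of the pathway (vertical axis), 1 point per gene, for Q111-ASOs minus Q111-Control (left) and Q111-Control minus Q7-Control (right), with dashed lines at 2-fold. No point passes 2-fold on the left, and Nrarp (-1.75), Dtx4 (-1.58) and Tle1 (1.05) do on the right.

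The labelled cell type was checked on markers of neural progenitors and of the striatum. The counts below stand beside all genes. Of these, 2.53% were over 2-fold lower and 2.03% over 2-fold higher in Q111-Control than in Q7-Control. On all 3 arrays 35.5% were equal. Each list is short, so a single gene past 2-fold says little about its list. Of 9 neural progenitor markers, 6 were over 2-fold lower in Q111-Control than in Q7-Control (Nes, Sox2, Pax6, Fabp7, Msi1 and Prom1, with log2 differences between -4.37 and -1.01). A brighter row that names both Elp4 and Pax6, not used, had 9.06 in Q111-ASOs, 9.13 in Q111-Control and 9.13 in Q7-Control. Prom1 was below the median of all genes on all 3 arrays. The glutamate transporter gene Slc1a3 was over 2-fold higher, with a log2 difference of 2.15, and Sox1 and Vim were equal on all 3 arrays. The summed linear signal of the 9 was 16234 in Q111-ASOs, 16305 in Q111-Control and 19349 in Q7-Control. Most of this sum is Vim, an intermediate filament gene of progenitors and many other cells, which had a log2 signal of 13.78 on all 3 arrays. Of 6 measured ventral forebrain progenitor markers, 0 passed 2-fold, and Dlx5 and Dlx2 had log2 differences of 0.82 and 0.44. Of 9 measured markers of striatal projection neurons, 8 had a mean signal below the median of all genes, 6 were equal on all 3 arrays, and 1 was over 2-fold higher in Q111-Control. This was the enkephalin gene Penk, with 8.22 in Q111-ASOs, 7.96 in Q111-Control and 6.00 in Q7-Control, opposite in direction to Hes1 and Hey1. Cells with Notch activity of their own were also looked for. Of 9 endothelial markers 1 was over 2-fold lower in Q111-Control (Flt1, at 6.75 in Q111-ASOs, 6.46 in Q111-Control and 9.88 in Q7-Control) and 7, among them Pecam1 and Cdh5, were equal on all 3 arrays and below the median of all genes. The summed linear signal of the endothelial markers was 529 in Q111-ASOs, 486 in Q111-Control and 1322 in Q7-Control, and the higher Q7-Control sum came from Flt1. Of 9 pericyte and smooth muscle markers 1 was over 2-fold lower, Acta2, at 8.16, 8.42 and 12.23 in the same order, and Rgs5 and Myh11 were equal on all 3 arrays. Pdgfrb and Des had the opposite direction, with log2 differences of 0.54 and 0.85 between Q111-Control and Q7-Control. The summed linear signal of these was 4549 in Q111-ASOs, 4418 in Q111-Control and 8003 in Q7-Control, a gap that came mainly from Acta2. Of the glial and immune lists, 0 of 6 astrocyte and 0 of 9 macrophage and microglia markers passed 2-fold between Q111-Control and Q7-Control, and 1 of 6 measured oligodendrocyte lineage markers, Pdgfra, was over 2-fold higher in Q111-Control. The part of cell makeup in the differences of the Notch genes was not tested, and fewer cells of a type and less RNA per cell cannot be told apart in bulk samples.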

How the data were processed

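Total RNA of 1 culture each of Q111-ASOs, Q111-Control and Q7-Control was hybridised to Affymetrix Mouse Gene arrays, 1 per culture. The authors deposited log2 signals per transcript cluster made with Partek software. Neither its version nor the settings for background correction, normalization and summarization are given in the sources used here, and the log2 scale was taken from the values (2.12 to 14.10). Of 41345 rows, 23521 carry 1 gene symbol, 1820 several and 16004 none. Rows with 1 symbol were used, with symbols updated by gene ID (23328 matched) through a RefSeq table (GRCm38.p6).

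Log2 differences between arrays were computed over all 22180 genes and counted past 2-fold. Precision is limited by the number of arrays, and no test was possible. Genes were named as all 10 members, genes of each pathway list past 2-fold, marker genes that the account of a marker list needs, up to 3 genes of each pathway list with the largest absolute Q111-Control minus Q7-Control difference, and the 3 genes nearest to the member with the largest such difference. The members and lists were chosen with earlier results of these data known. The counting was tested on simulated arrays. Alternatives were centred arrays, quantile normalization, averaging a gene's rows, a minimum signal, 1.5-fold and 3-fold criteria and values relative to Gapdh. Python 3.11.15, numpy 2.4.6, pandas 2.3.3 and matplotlib 3.10.9 were used.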

Additional observations from a re-analysis of the deposited data

How the results depend on the processing

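A shift of a log2 value was counted as small below 0.13, the SD over all genes of Q111-ASOs minus Q111-Control, and a shift of a count within 1.5 times. No paired analysis was possible because there are no replicates. Every log2 difference of the 10 Notch genes moved by less than this limit under every alternative that left the gene in. This limit is wide beside the small differences with ASOs. That of Dll1 fell from 0.25 to 0.12 when its rows were averaged, a shift still counted as small. Requiring a mean signal of at least the median gene removed Dll3, Jag2 and Hes5. Gapdh was equal on all 3 arrays, so values relative to it could not move. The minimum signal only drops genes, so it could not move a difference of those left in. Hey1 was left in through its Q7-Control signal (8.92), as its Q111 signals (5.96 and 6.13) were under the median of all genes. With a 3-fold criterion 1 of the 10 genes, Hey1, was lower in Q111-Control than in Q7-Control, and the same 1 was lower in Q111-ASOs than in Q7-Control, since Hes1 lies just short of 3-fold. Hes1 passes it after centring (log2 differences of -1.64 and -1.62 in these comparisons) and after quantile normalization (-1.63 and -1.61). With a 1.5-fold criterion, 3 of the 57 other pathway genes were higher and 4 lower in Q111-Control than in Q7-Control. Of all genes, 5.20% were over 1.5-fold lower there. At that criterion 3 of the 57 were higher in Q111-ASOs than in Q7-Control. With a 3-fold criterion 0 were higher and 1 was lower in both comparisons, against 1.15% and 1.01% of all genes lower. The shares of all genes higher at these 2 criteria are not given here, so the higher counts have no background beside them. The 1 other pathway gene over 2-fold higher in Q111-Control, Tle1, became 0 after centring, quantile normalization and averaging of its rows, and after that averaging also 0 in Q111-ASOs against Q7-Control, where its log2 difference was 0.57. With a minimum signal, 1 pathway gene was over 2-fold lower in either Q111 array than in Q7-Control, since that filter removes Nrarp.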

Other observations

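Genes with values most like those of Hey1 were sought by the distance between both log2 differences (Q111-ASOs minus Q111-Control, and Q111-Control minus Q7-Control). The search covered 10631 genes with a mean signal over the 3 arrays of at least the median gene, predicted genes left out. Nearest was Pou3f3, a POU-domain transcription factor gene of the developing brain, with a log2 signal of 5.88 in Q111-ASOs, 5.96 in Q111-Control and 8.63 in Q7-Control, at a distance of 0.15. Cap2, which encodes an actin-regulating protein, had 6.19 in both Q111-ASOs and Q111-Control and a log2 difference of -2.82 between Q111-Control and Q7-Control (distance 0.18). Pdgfb, the gene of the platelet-derived growth factor B chain, had 5.66 in Q111-ASOs, 5.87 in Q111-Control and 8.84 in Q7-Control (distance 0.19). Like Hey1, these genes passed the limit on mean signal through Q7-Control only. Their signals in Q111-ASOs and Q111-Control were under the median of all genes (6.55). With 3 arrays, likeness of this kind is a description and says nothing of shared control.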
